A study of Homo sapiens with 4 samples.

Results

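The genes described here encode 44 nucleolar factors that build ribosomes. They were chosen by symbol from a list of known factors, and all 44 were found among the 20263 genes of the count table and passed its filter on low counts. Their transcripts were counted by mRNA sequencing of MDA-MB-231 cells. This long-established line from a human breast tumour is classed as lacking hormone receptors and HER2 and as mesenchymal in character. Cells were kept for 24 h in medium with 10% serum and either RB-BC, which the study's title calls a derivative of ribociclib (an inhibitor of the cell-cycle kinases CDK4 and CDK6), or the vehicle DMSO. Each group held 2 libraries, called RB-BC 1, RB-BC 2, DMSO 1 and DMSO 2. No dose is stated in the labels, and the treatment protocol calls the compound Rib_CA without saying whether that is RB-BC. All cells are of this single line, and nothing in the labels says that the libraries of a group came from separate cultures.

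Ribosomes are assembled from rRNA that RNA polymerase I transcribes in the nucleolus. Small nucleolar ribonucleoproteins (snoRNPs) modify that rRNA, those of the box C/D type by ribose methylation and those of the box H/ACA type by pseudouridylation. A large particle called the small-subunit processome folds and cleaves the precursor of the small subunit, and a separate set of factors matures the large subunit. Genes of this pathway are generally highly transcribed in growing cells, and many are known targets of MYC.

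Library totals ran from 42752387 to 42786422 counts in RB-BC and from 34774542 to 37754168 in DMSO. Mitochondrially encoded genes took 10.1% to 10.3% of the counts in RB-BC, against 8.68% in DMSO 1 and 21.7% in DMSO 2 (95% Wilson interval 21.68% to 21.71%, which covers counting error only). Of 8 markers of the line, VIM, CD44, EGFR, AXL, CAV1, LGALS1 and S100A4 had at least 189 counts in every library and SPARC had 20 to 56. The 8 markers summed to 8771 and 9052 CPM in RB-BC and to 6985 and 8379 CPM in DMSO. Of 9 luminal or epithelial markers, the epithelial cadherin gene CDH1 had 0 to 2 counts, ESR1 6 to 23 and PGR 40 to 58. EPCAM, FOXA1 and GATA3 had 238 to 716 counts, ERBB2 (the HER2 gene) 2150 to 2694, KRT18 7727 to 10176 and KRT8 9391 to 10283. Among markers of other cells, CD3E of the haematopoietic genes and COL1A2 and DCN of the 4 fibroblast genes had no count in any library. The haematopoietic markers summed to 473 and 504 CPM in RB-BC and to 149 and 333 CPM in DMSO, nearly all of it CD68, a lysosomal gene that epithelial tumour cells also transcribe. The fibroblast markers summed to 5.83 and 5.16 CPM in RB-BC and 9.59 and 9.67 CPM in DMSO, the 3 endothelial markers to at most 2.24 CPM in any library, and the 9 luminal or epithelial markers to 487 and 470 CPM in RB-BC and 589 and 703 CPM in DMSO. The part of these markers and of the mitochondrial share in the results below was not tested. With the mitochondrially encoded genes removed all 11 calls among the nucleolar factors were kept. That fit drops few genes and cannot show whether DMSO 2 differs in other ways. With library totals as the only scaling, 5 of the 11 calls were kept.

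In RB-BC, transcripts of 10 of the 44 nucleolar factors fell and 1 rose. The genes that fell were NOP58, UTP15, NIP7, POLR1A, NOP56, BRIX1, TCOF1, UTP20, NCL and NOP2, by 0.59 to 1.15 on the log2 scale, and the gene that rose was NOB1, by 0.97. Among all 13744 genes tested, 7.53% were called lower and 8.58% higher, so that the 22.7% of members called lower was above the table's share and the 2.27% called higher was below it. Calls are genes with an adjusted p under 0.05 in edgeR's quasi-likelihood test, two-sided, with Benjamini-Hochberg adjustment over all genes tested. Differences are log2 ratios of RB-BC to DMSO, given ± their standard error (SE), and levels are TMM-scaled CPM, a gene's counts relative to the scaled total of its library. A level is a share of the RNA of all cells in a culture, so that fewer cells with a transcript and less of it per cell cannot be told apart. The p-values rest on the spread within each pair of libraries, and that spread may be technical alone. An exact permutation test at this size has a smallest two-sided p of 0.333.

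The median log2 fold change of the 44 genes was −0.35, beside a median of 0.00 over all genes tested, and 34 of the 44 were negative. Both RB-BC libraries lay below both DMSO libraries for 31 members, or 70.5%, against 32.1% of all genes tested. They lay above both DMSO libraries for 3 members, or 6.82%, against 33.1% of all genes tested, and the groups overlapped for the other 10. Summed over the 44 genes, the level was 4440 and 4545 CPM in RB-BC and 5788 and 5977 CPM in DMSO. With RB-BC 1 or RB-BC 2 left out, 0 members passed in either direction, although every one of the 11 genes kept its sign. In those fits the spread comes from the DMSO pair alone, and 0.402% and 0.990% of all genes were then called lower. Without DMSO 1, 15 members fell and 1 rose, where 11.6% of all genes were called lower and 11.5% higher. Without DMSO 2, 13 fell and 2 rose, where 12.5% of all genes were called lower and 13.5% higher.

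**Figure D1:**
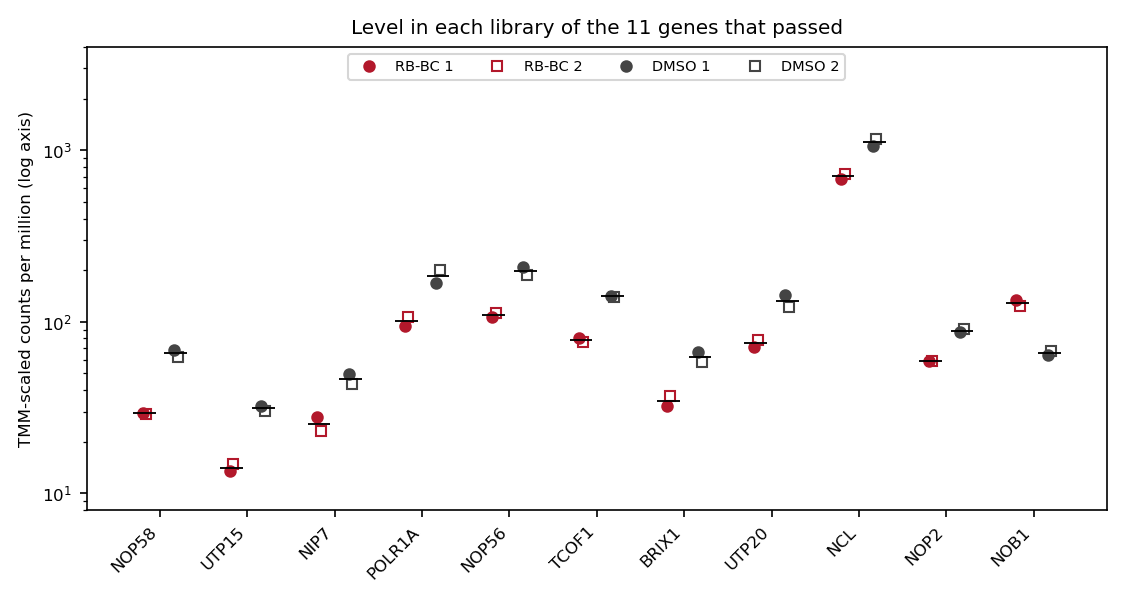
TMM-scaled CPM (log axis) of the 11 genes that passed edgeR's test, in each library: red for RB-BC, grey for DMSO, filled circles for replicate 1, open squares for replicate 2, black bars for group means. In 10 genes both RB-BC libraries lie below both DMSO libraries, and in NOB1 they lie above.

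Among the core proteins of box C/D snoRNPs, NOP58 and NOP56, the paired scaffold proteins of the particle, fell. NOP58 had 29.6 and 29.2 CPM in RB-BC 1 and RB-BC 2, against 68.8 and 62.1 CPM in DMSO 1 and DMSO 2 (log2 fold change −1.15 ± 0.14, edgeR adjusted p = 0.0103). NOP56 had 107 and 112 CPM in RB-BC, against 210 and 187 CPM in DMSO (−0.86 ± 0.14, edgeR adjusted p = 0.0183). For both genes the gap between the groups was wider than the gap within either group. FBL, which encodes fibrillarin, the methyltransferase of the same particle, did not pass, with 200 and 172 CPM in RB-BC and 153 and 184 CPM in DMSO (0.14 ± 0.17). SNU13, which encodes the protein that binds the kink-turn of box C/D RNAs and of a spliceosomal RNA, had 88.0 and 78.8 CPM in RB-BC and 60.6 and 91.6 CPM in DMSO (0.13 ± 0.22). The groups overlapped for FBL and SNU13, and the SNU13 estimate was −0.13 without DMSO 1.

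None of the box H/ACA core genes passed edgeR's test, and their estimates had both signs. NOP10, the smallest protein of the particle, had 175 and 137 CPM in RB-BC and 95.5 and 111 CPM in DMSO (0.60 ± 0.18, edgeR adjusted p = 0.0724), and NHP2, an RNA-binding relative of SNU13, had 119 and 105 CPM in RB-BC and 98.8 and 83.5 CPM in DMSO (0.30 ± 0.16). DKC1, which encodes dyskerin, the pseudouridine synthase, had 64.9 and 69.9 CPM in RB-BC and 88.5 and 95 CPM in DMSO (−0.44 ± 0.14, edgeR adjusted p = 0.0780). GAR1 was at −0.20 ± 0.14. The groups did not overlap for any of these genes, with NOP10 and NHP2 higher and DKC1 and GAR1 lower in RB-BC. Among all genes tested, 33.1% were higher and 32.1% lower in both RB-BC libraries. NOP10 passed with DESeq2 and without DMSO 2, and DKC1 with DESeq2 and without DMSO 1. Over the 8 snoRNP core genes the median log2 fold change was −0.03, and −0.20 without DMSO 1.

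All 4 nucleolar phosphoproteins and chaperones were lower in both RB-BC libraries than in both DMSO libraries, and TCOF1 and NCL passed. Among all genes tested, 32.1% were lower in both RB-BC libraries and 7.53% were called lower. TCOF1, which encodes treacle, a scaffold for RNA polymerase I and for NOLC1, had 80.0 and 76.5 CPM in RB-BC, against 142 and 139 CPM in DMSO (−0.85 ± 0.13, edgeR adjusted p = 0.0162). NCL, which encodes nucleolin, an abundant rRNA-binding protein, had 682 and 729 CPM in RB-BC, against 1054 and 1167 CPM in DMSO (−0.65 ± 0.16, edgeR adjusted p = 0.0423). NPM1, the nucleolar histone chaperone nucleophosmin, had 715 and 801 CPM in RB-BC and 1053 and 1021 CPM in DMSO, and NOLC1, a snoRNP chaperone, had 210 and 218 CPM in RB-BC and 270 and 331 CPM in DMSO. NPM1 (−0.45 ± 0.16, edgeR adjusted p = 0.10) and NOLC1 (−0.49 ± 0.16, edgeR adjusted p = 0.0906) did not pass. Per kilobase of transcript, NPM1 had the highest level of the 44 genes, 431 CPM in RB-BC and 590 CPM in DMSO. NPM1 has many processed pseudogenes, and how shared reads were counted is not known.

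Of the 14 genes of the small-subunit processome, UTP15 and UTP20 fell and 0 rose, and the median log2 fold change was −0.36. That is 14.3% called lower, against 7.53% of all genes tested, of which 8.58% were called higher. A share of 14 genes rests on few calls. UTP15, of the UTPA complex that binds the nascent rRNA first, had 13.5 and 14.8 CPM in RB-BC, against 32.4 and 30.4 CPM in DMSO (−1.15 ± 0.15, edgeR adjusted p = 0.0114). UTP20, a very large helical-repeat protein, had 71.4 and 78.7 CPM in RB-BC, against 143 and 122 CPM in DMSO (−0.82 ± 0.15, edgeR adjusted p = 0.0228). Both genes kept clear of overlap between the groups. The other UTPA genes did not pass: WDR75 (−0.55 ± 0.15, edgeR adjusted p = 0.0541), UTP4 (−0.40 ± 0.15), WDR43 (−0.39 ± 0.15) and HEATR1 (0.01 ± 0.21). HEATR1 had 69.1 and 80.5 CPM in RB-BC, inside the range of 87.1 and 61.0 CPM in DMSO, and its estimate was −0.22 without DMSO 2. In the UTPB complex, which joins after UTPA, PWP2 was at −0.61 ± 0.17 (edgeR adjusted p = 0.0632). UTP18 was at −0.29 ± 0.15 and UTP6 at −0.22 ± 0.16. Each of these UTPB genes was lower in both RB-BC libraries, as were 32.1% of all genes tested.

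NOP14 (−0.34 ± 0.17), UTP3 (−0.28 ± 0.13), the helicase gene DDX10 (−0.09 ± 0.13) and UTP14A (0.07 ± 0.17), whose yeast counterpart activates a processome helicase, did not pass. RRP9, a protein of the U3 snoRNP, had 9 and 8 counts in RB-BC and 10 and 18 in DMSO, too few for a firm estimate. In all, 12 of the 14 processome genes (85.7%) were negative, RRP9 with its few counts among them, against 50.1% of all genes tested.

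NOB1 was the member that rose. It encodes the endonuclease that trims the last stretch of the small-subunit rRNA, a late cytoplasmic step. It had 134 and 124 CPM in RB-BC, against 64.5 and 67.3 CPM in DMSO, a 1.96-fold difference (0.97 ± 0.14, edgeR adjusted p = 0.0132). BYSL, which encodes bystin of the pre-small-subunit particle, had 46.9 and 48.8 CPM in RB-BC and 51.9 and 59.8 CPM in DMSO and did not pass. RRP12, an export factor of pre-ribosomes, had 35 and 33 counts in RB-BC and 33 and 16 in DMSO. The estimate for NOB1 lay between 0.91 and 1.03 with any 1 library left out.

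**Figure D2:**
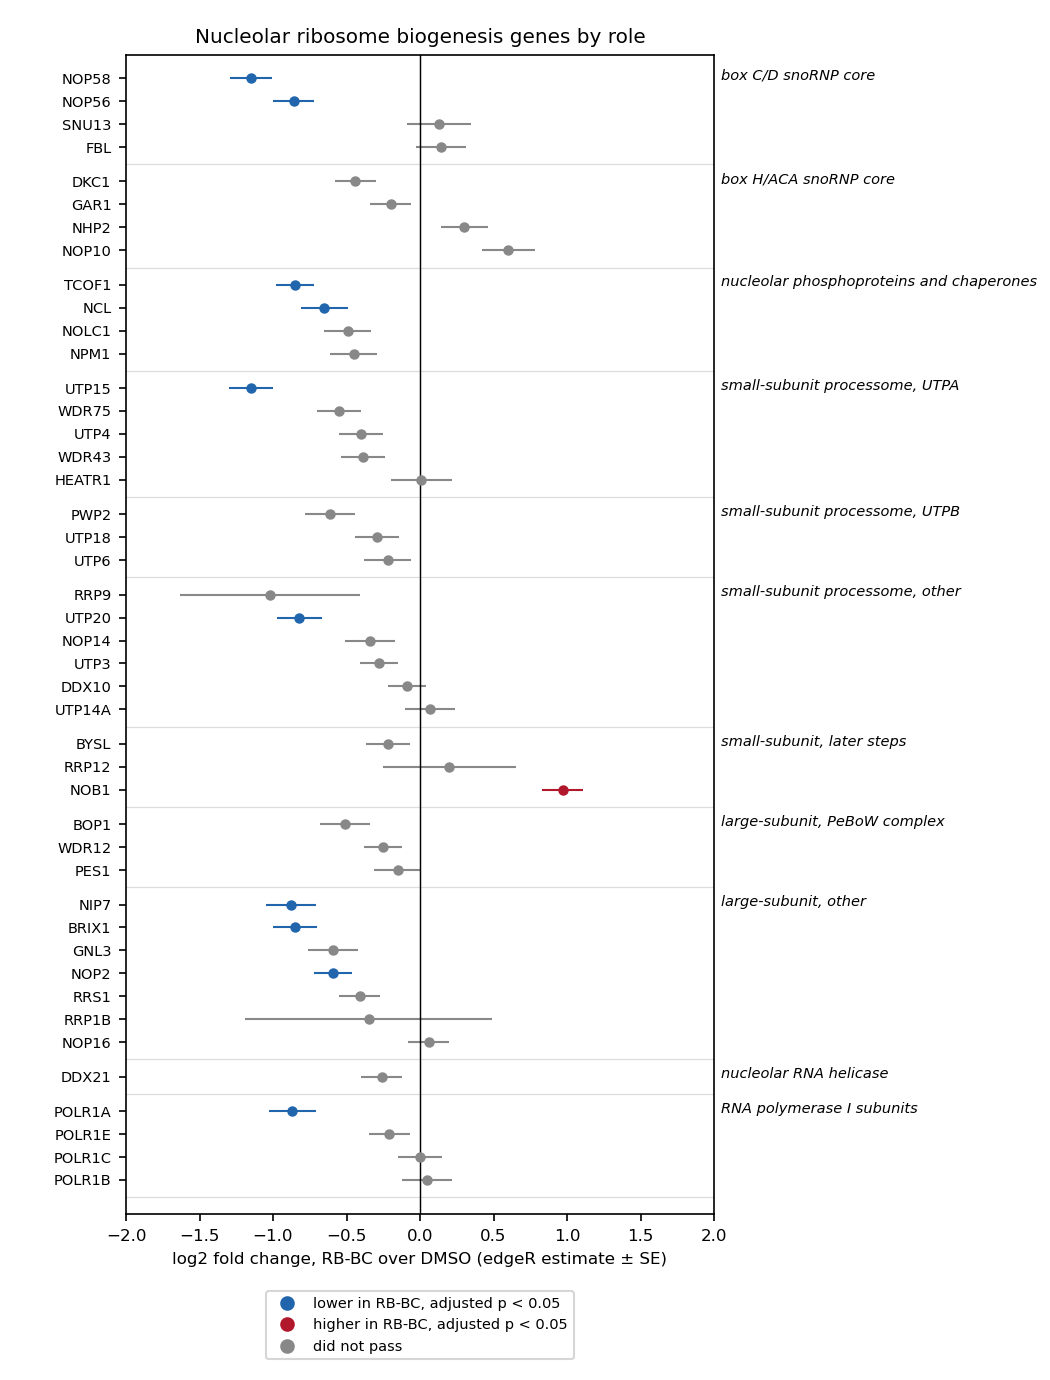
Log2 fold change, RB-BC over DMSO, with its SE from edgeR for the 44 genes grouped by role, in blue where lower and red where higher at an adjusted p under 0.05. The estimates run from −1.15 to 0.97, and wide bars mark RRP9, RRP12 and RRP1B, which have few counts.

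Of 10 large-subunit factors, NIP7, BRIX1 and NOP2 fell and 0 rose, with a median log2 fold change of −0.46. That is 30.0% called lower, against 7.53% of all genes tested, of which 8.58% were called higher. NIP7, an RNA-binding maturation factor, had 27.7 and 23.2 CPM in RB-BC, against 49.8 and 43.6 CPM in DMSO (−0.88 ± 0.17, edgeR adjusted p = 0.0241). BRIX1, an assembly factor named for its Brix domain, had 32.5 and 36.8 CPM in RB-BC, against 66.6 and 58.3 CPM in DMSO (−0.85 ± 0.15, edgeR adjusted p = 0.0211). NOP2, a methyltransferase of large-subunit rRNA, had 58.8 and 59.2 CPM in RB-BC, against 87.0 and 90.4 CPM in DMSO (−0.59 ± 0.13, edgeR adjusted p = 0.0362). In all 3 the higher RB-BC library was below the lower DMSO library, but with library totals as the only scaling 0 of the 3 passed. GNL3, which encodes the GTPase nucleostemin, had 105 and 110 CPM in RB-BC and 182 and 143 CPM in DMSO (−0.59 ± 0.17, edgeR adjusted p = 0.0620). BOP1, PES1 and WDR12, whose products form the PeBoW complex, did not pass, at −0.51 ± 0.17, −0.15 ± 0.16 and −0.25 ± 0.13. RRS1 (−0.41 ± 0.14) and NOP16 (0.06 ± 0.14) did not pass either, and RRP1B had 3 and 20 counts in RB-BC and 13 and 11 in DMSO. Outside these groups, the helicase gene DDX21, whose product acts on rDNA transcription and snoRNA binding, had 218 and 219 CPM in RB-BC and 277 and 247 CPM in DMSO (−0.26 ± 0.14).

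Of 4 RNA polymerase I subunits, the catalytic subunit gene POLR1A fell. It had 94.2 and 107 CPM in RB-BC, against 168 and 200 CPM in DMSO (−0.87 ± 0.16, edgeR adjusted p = 0.0227). POLR1B, which encodes the other large subunit of the active centre, had 37.2 and 42.0 CPM in RB-BC and 42.5 and 34.0 CPM in DMSO (0.05 ± 0.17). POLR1C, shared with RNA polymerase III, had 28.5 and 31.9 CPM in RB-BC and 29 and 31.7 CPM in DMSO, a ratio of 0.997. The groups overlapped for POLR1B and POLR1C. POLR1E, of a dissociable pair of subunits, was at −0.21 ± 0.14, with both RB-BC libraries lower. Differences between subunits of a complex were not tested.

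**Figure D3:**
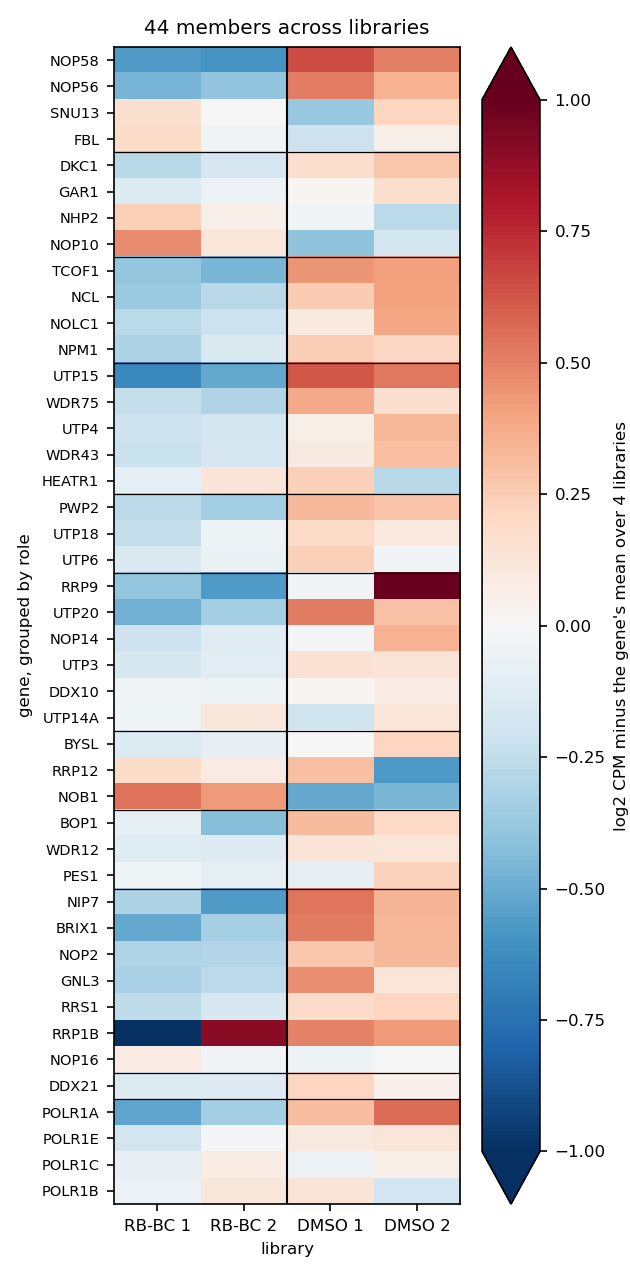
Log2 CPM of each of the 44 genes in each library minus that gene's mean over the 4 libraries, with horizontal lines between roles and colours limited to 1 log2 unit either way. Most rows are blue in RB-BC and red in DMSO, NOB1 shows the opposite, and RRP9, RRP12 and RRP1B vary between replicates on few counts.

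The promoters of several of these genes were read from the RefSeq table of starts, build GRCh38.p14, which held 35 of the 44. BOP1, NOLC1, NOP58, POLR1E, RRP12, RRP1B, RRS1, SNU13 and TCOF1 had no entry in it. Windows of 250 bases before to 50 after each start were searched on both strands for 4 short motifs: the MYC-type E-box CACGTG, the ETS-type CCGGAAG, and TCGCGAG and GCATGCG, which recur in promoters of housekeeping genes. The CACGTG motif was in 16 of 35 members (45.7%), against 12.3% of 10959 tested genes in the table and 7.3% of all 35116 promoters. Members and tested genes were scored for a match in any window of the gene. The 35116 promoters were scored singly, so only the share of tested genes is a like measure. CCGGAAG was in 14 (40%, against 21.6% of tested genes and 10.3% of all promoters), TCGCGAG in 6 (17.1%, against 5.2% and 2.4%) and GCATGCG in 4 (11.4%, against 7.4% and 3.9%). CACGTG was in 2 of the 8 members that fell and had an entry and in 14 of the 26 that did not pass, and the median log2 fold change was −0.31 with it and −0.28 without it. Below are the 250 bases before the start of 4 genes that fell, of NOP10, which has the E-box and was higher in both RB-BC libraries without passing, and of NOB1, which rose. Capitals mark the motifs.
UTP20, chr12:101279855-101280104, plus strand: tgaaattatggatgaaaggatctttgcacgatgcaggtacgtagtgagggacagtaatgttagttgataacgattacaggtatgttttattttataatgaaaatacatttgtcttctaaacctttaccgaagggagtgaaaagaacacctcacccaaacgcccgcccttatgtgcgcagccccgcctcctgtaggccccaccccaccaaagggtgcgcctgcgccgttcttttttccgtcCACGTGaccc
NCL, chr2:231464485-231464734, minus strand: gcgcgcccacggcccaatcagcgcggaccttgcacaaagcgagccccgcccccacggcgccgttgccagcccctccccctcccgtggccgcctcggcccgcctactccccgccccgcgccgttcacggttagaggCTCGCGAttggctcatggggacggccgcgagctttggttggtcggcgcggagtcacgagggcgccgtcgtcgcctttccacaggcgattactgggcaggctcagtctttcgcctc
BRIX1, chr5:34915461-34915710, plus strand: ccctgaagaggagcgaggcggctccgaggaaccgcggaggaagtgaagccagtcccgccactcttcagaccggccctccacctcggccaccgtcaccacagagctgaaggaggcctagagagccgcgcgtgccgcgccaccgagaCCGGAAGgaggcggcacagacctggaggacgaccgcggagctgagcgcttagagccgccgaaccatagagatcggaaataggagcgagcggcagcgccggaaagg
NIP7, chr16:69339522-69339771, plus strand: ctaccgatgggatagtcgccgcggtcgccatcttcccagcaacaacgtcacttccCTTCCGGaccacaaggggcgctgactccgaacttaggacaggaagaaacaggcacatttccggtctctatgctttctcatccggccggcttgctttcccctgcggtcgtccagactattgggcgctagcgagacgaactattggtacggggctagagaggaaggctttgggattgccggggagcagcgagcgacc
NOP10, chr15:34343137-34343386, minus strand: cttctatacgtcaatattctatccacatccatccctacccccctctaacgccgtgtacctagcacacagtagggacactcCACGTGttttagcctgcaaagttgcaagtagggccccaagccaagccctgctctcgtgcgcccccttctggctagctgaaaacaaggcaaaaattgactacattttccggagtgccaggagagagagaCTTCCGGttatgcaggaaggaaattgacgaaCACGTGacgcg
NOB1, chr16:69754927-69755176, minus strand: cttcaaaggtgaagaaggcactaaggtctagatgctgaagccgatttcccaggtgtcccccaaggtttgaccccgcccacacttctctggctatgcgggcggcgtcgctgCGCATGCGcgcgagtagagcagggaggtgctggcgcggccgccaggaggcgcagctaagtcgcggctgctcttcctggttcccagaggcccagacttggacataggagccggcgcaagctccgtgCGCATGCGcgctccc
In UTP20 the E-box begins 10 bases before the start, and NOP10 has an E-box at 11 and at 170 bases and the reverse complement of CCGGAAG at 42. NCL has TCGCGAG, as its reverse complement, at 115 bases. BRIX1 has CCGGAAG at 105 bases, and NIP7 has its reverse complement at 195. NOB1 has overlapping copies of GCATGCG on both strands at 2 places, beginning 140 and 15 bases before the start. A match is a description of letters, not a site of binding.

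Of the 44 genes, 6 carry snoRNA genes in GENCODE release 29, the RNAs being made from excised introns. NOP56 holds 5 (SNORA51, SNORD56, SNORD57, SNORD86 and SNORD110), NOP58 holds 3, NCL 3, WDR43 3, GNL3 3 and DKC1 2. NOP56, NOP58 and NCL fell, and all 6 were lower in both RB-BC libraries than in both DMSO libraries. Of the 38 members without a snoRNA gene, 18.4% fell and 65.8% were lower in both RB-BC libraries. Among all genes tested these shares were 7.53% and 32.1%. The median log2 fold change was −0.62 for the 6 and −0.27 for the 38. The difference between them rests on 6 genes and was not tested. The snoRNAs themselves are not analysed here.

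Longer transcripts had lower fold changes in the table as a whole. Over the 44 genes Spearman's rho between transcript length and log2 fold change was −0.32, and over 13728 tested genes with a length it was −0.17, both across genes of the same 4 libraries, which are not independent replicates. Tested genes were split by length into 4 classes of about equal number. In the shortest class (up to 2000 bases) the median log2 fold change was 0.16, and it was −0.10 in the 14 members there, of which BRIX1 fell and NOB1 rose. From 2001 to 3124 bases the medians were 0.04 over all genes and −0.51 over 13 members, from 3125 to 4877 bases −0.07 and −0.36 over 12 members, and from 4879 bases on −0.12 and −0.35 over 5 members. The members' median was thus below that of all genes in each class. The part of transcript length in the calls was not tested.

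**Figure D4:**
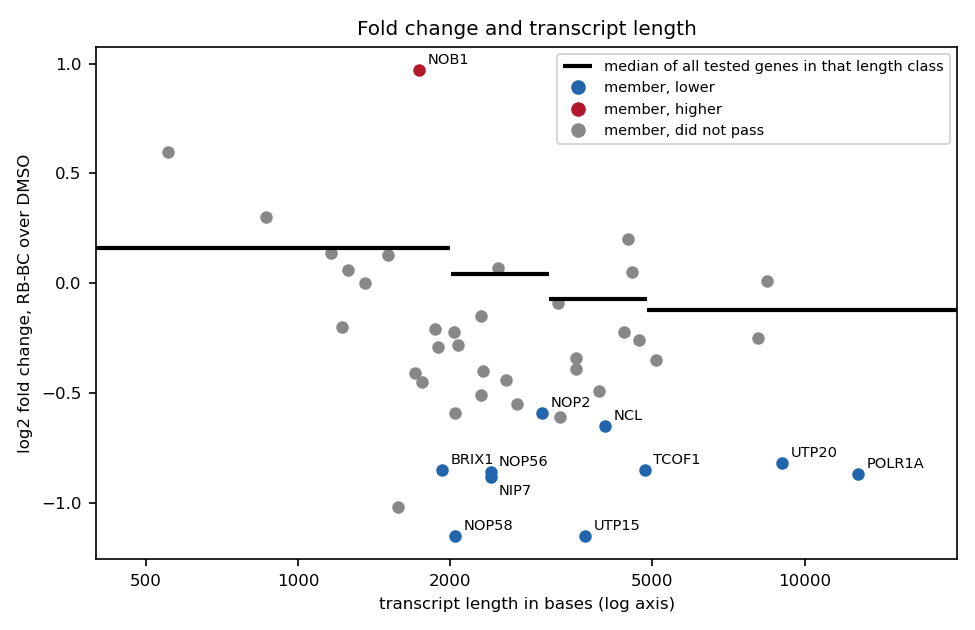
Log2 fold change, RB-BC over DMSO, of the 44 genes against transcript length in bases (log axis), with black bars for the median of all tested genes in each of 4 length classes. The bars step from 0.16 in the shortest class to −0.12 in the longest. Of the 10 genes that fell, 1 (BRIX1) lies in the shortest class, which holds 14 of the 44 members and 3432 of 13728 tested genes.

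Some members share exonic bases with other genes in GENCODE release 29, and whether the counting used strand is not known. NOP2 shares 54.4% and NOB1 20.2% of their exonic bases with genes that have no row in the count table. NIP7 shares 20.2% with COG8, BRIX1 9.62% with RAD1, NHP2 27.4% with RMND5B and HEATR1 23.2% with LGALS8, all on the opposite strand and all counted as genes of their own. NOP14, NOP16, POLR1C, RRS1, NOP56, RRP12, DKC1 and PES1 share between 5.4% and 20.0%. The values of these 14 genes are uncertain for that reason. Among the 30 members that share at most 5%, 6 (20.0%) fell and 0 rose, and the median log2 fold change was −0.37. Of all genes tested, 7.53% were called lower and 8.58% higher. NOB1, the member that rose, is not among these 30.

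Another 138 genes were listed, factors of the same pathway with MYC and MAX, of which 137 were tested, 17 fell and 4 rose. That is 12.4% lower, between the 22.7% of the 44 members and the 7.53% of all genes. Their median log2 fold change was −0.22. The share called lower was 17.5% of other small-subunit, 14.9% of other large-subunit and 16.7% of other RNA polymerase I genes. It was 0 in the snoRNP assembly and RNA polymerase III lists. Among members it was 14.3% of processome genes, and above the matching list for large-subunit and RNA polymerase I genes. Differences between these lists and the 44 were not tested. The counts of the whole list depended on the fit. With library totals as the only scaling 2 fell and 2 rose, both below the table's shares of 3.02% lower and 5.75% higher. Without RB-BC 1, 0 fell and 0 rose, and without RB-BC 2, 0 fell and 1 (NOP53) rose. Of 40 other small-subunit factors 7 fell and 1 rose. NOL11, a further UTPA protein, fell by 1.05 ± 0.17 (edgeR adjusted p = 0.0175), LTV1, of the late pre-small-subunit particle, by 0.93 and the processome protein NOL6 by 0.88, while UTP25 rose by 0.60. Of 47 other large-subunit factors tested 7 fell and 1 rose: URB2 (−1.10 ± 0.17), the helicase gene DDX18 (−0.89) and PAK1IP1 (−0.80) were among those that fell, and NOP53 rose (1.31 ± 0.14, edgeR adjusted p = 0.00824). NOP53 had 9532 and 9057 counts in RB-BC and 3167 and 2952 in DMSO.

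Among 12 further RNA polymerase I subunits and factors, POLR1G, the partner of POLR1E (−0.83 ± 0.19), and POLR1F (−0.73 ± 0.17) fell, and POLR1D, which pairs with POLR1C in both polymerases, rose (0.79 ± 0.14, edgeR adjusted p = 0.0198). Of 11 subunits specific to RNA polymerase III, POLR3D rose (0.59 ± 0.14) and 0 fell. Of 15 genes of the exosome and nuclear RNA decay, EXOSC9 fell (−0.89 ± 0.15) and 0 rose. Of 10 snoRNP assembly factors, 0 passed edgeR's test. The share called higher was 8.33% in the RNA polymerase I list and 9.09% in the RNA polymerase III list, near the 8.58% of all genes. The share called lower in the exosome list was 6.67%, near the 7.53% of all genes.

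MYC, a transcription factor known to drive ribosome biogenesis, had 35.4 and 34.0 CPM in RB-BC, against 7.52 and 28.6 CPM in DMSO (0.94 ± 0.55, edgeR adjusted p = 0.274). Its partner MAX had 117 and 113 CPM in RB-BC, against 52.2 and 98.1 CPM in DMSO (0.61 ± 0.29, edgeR adjusted p = 0.193). Neither passed, and both values rested on which DMSO library was used: MYC was at 0.28 without DMSO 1 and at 2.20 without DMSO 2, and MAX was at 0.23 and 1.13 in the same fits. Without DMSO 2 both passed edgeR's test. For the 44 nucleolar factors the median difference, DMSO 1 minus DMSO 2, was −0.01 on the log2 scale, beside −0.00 over all genes tested. A relation between MYC and the 44 genes was not tested.

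For comparison, of 78 cytosolic ribosomal protein genes 33 (42.3%) rose and 0 fell, with a median log2 fold change of 0.67. Of 78 mitochondrial ribosomal protein genes 3 (3.85%) rose and 1 (1.28%) fell, with a median of 0.13. Among all genes tested 8.58% were called higher and 7.53% lower, so both mitochondrial shares were below the table's. The difference between these sets and the 44 nucleolar factors was not tested.

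With any 1 library left out, the sizes of the 11 differences moved less than their calls did. Each of the 10 lower genes stayed between −0.56 and −1.23, while all 11 calls were lost without RB-BC 1 and without RB-BC 2.

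**Figure D5:**
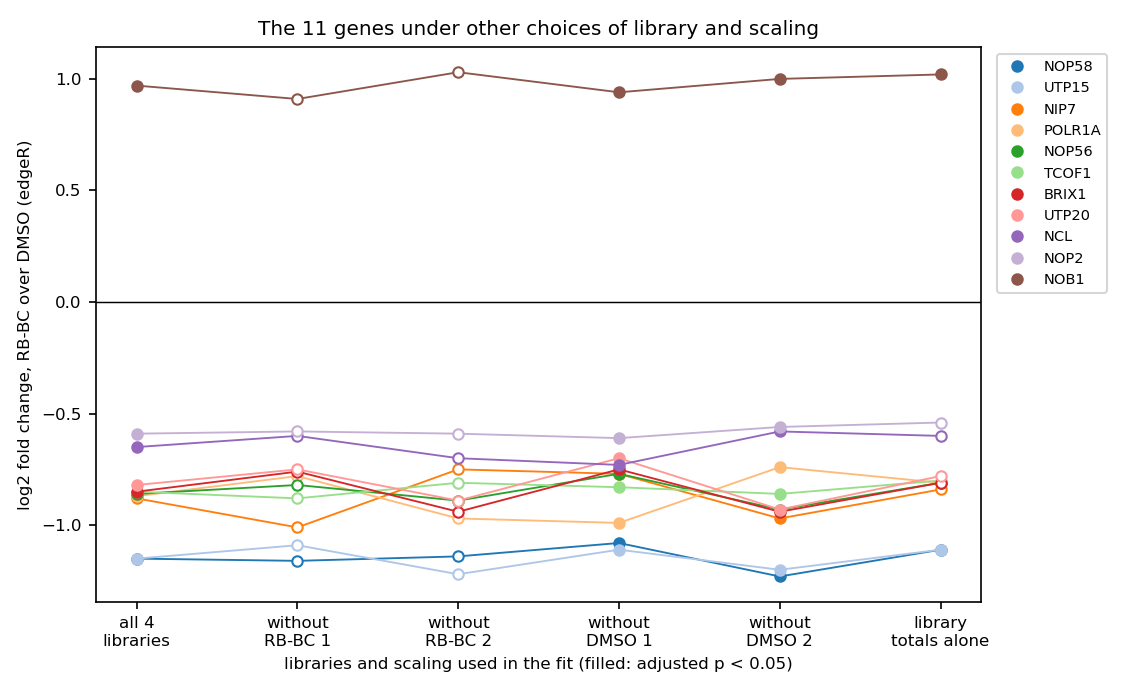
Log2 fold changes (edgeR, RB-BC over DMSO) of the 11 genes with all 4 libraries, with each library left out in turn, and with library totals as the only scaling, filled where the adjusted p is under 0.05. All markers are open where an RB-BC library is left out, and all are filled where a DMSO library is.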

How the data were processed

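Libraries were prepared from 1.4 µg of total RNA with an mRNA kit, per the labels' protocols. The authors deposited 1 table of raw counts, whole numbers by human Ensembl identifier and library. The aligner, the counting tool, the annotation and the use of strand were not given in the sources used here. Mouse builds GRCm38 and mm10 are the only ones in the submitters' processing notes, while every identifier is human, so no coordinates come from the table. Symbols were matched for 20148 identifiers through a gene name table and for 76 through GENCODE release 29, and 39 had none.

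Counts were fitted with edgeR 4.0.16 in R 4.3.3 over all 4 libraries: filterByExpr with a minimum count of 10 and a minimum total of 15 left 13744 genes, TMM scaling and the quasi-likelihood test followed, and p-values were adjusted by Benjamini-Hochberg with a threshold of 0.05. The SE is the absolute log2 fold change over the square root of F. The script was tested on simulated data. Alternatives were DESeq2 1.42.0, limma-voom (limma 3.58.1), RLE size factors, library totals alone, other filters, removal of mitochondrially encoded genes, a replicate block and leaving out each library. Transcript lengths, snoRNA genes and exonic overlaps came from GENCODE release 29, and promoters from RefSeq. A comparison of member proteins was planned and not made. The members, lists and tests were chosen with earlier results of these data known. All members are accounted for, and up to 3 genes past the threshold per direction are named from each other list by smallest adjusted p, with MYC and MAX. A further gene of the marker lists is not reported here.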

Additional observations from a re-analysis of the deposited data

How the results depend on the processing

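The 11 calls among the 44 genes were all kept with DESeq2, RLE size factors, limma-voom, a mean of at least 50 counts, no low-count filter, mitochondrially encoded genes removed, and without either DMSO library, and 0 changed sign in any fit run. DESeq2 called 17 members lower and 2 higher, among 1589 genes lower in the table, and 7 of the other pathway genes higher. With library totals as the only scaling, 4 members (NOP58, TCOF1, UTP15 and POLR1A) stayed lower and the members' median was −0.29. In that fit 415 genes of the table (3.02%) were lower, and 2 of the other pathway genes were lower and 2 higher. With 1 library left out at a time, members called lower ranged from 0 to 15, members higher from 0 to 2, the members' median from −0.39 to −0.27, all genes lower from 56 to 1760, all genes higher from 149 to 1888, other pathway genes lower from 0 to 33 and higher from 0 to 8. Both fits with a single RB-BC library gave 0 members, and there the lone library is assumed to vary like the DMSO pair. Uncalled genes near 0 crossed it: SNU13 ranged from −0.13 to 0.46, HEATR1 from −0.22 to 0.30, UTP14A from −0.08 to 0.23, RRP12 from −0.17 to 0.71, PES1 from −0.30 to 0.03, RRP1B from −2.23 to 0.44, POLR1B from −0.10 to 0.22 and POLR1C from −0.09 to 0.08, with 0.05 for POLR1C under library totals. Replicate numbers were not shown to pair the libraries (correlation of same-numbered deviations −0.0341). With them as a replicate block, 8 members were lower and 1 higher, beside 7.0% and 8.38% of all genes. NCL and NOP2 lost their calls at log2 fold changes of −0.65 and −0.59, and 10 of the other pathway genes were lower. The causes were not tested. RRP9, RRP12 and RRP1B have few counts and SEs of 0.61, 0.45 and 0.84 in the main fit, so that small differences in them could be missed.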

Other observations

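Low counts recurred among genes with RRP names, which were chosen for description after their values were seen. Of 8 such genes in the table, 5 (RRP7A, RRP9, RRP12, RRP15 and RRP1B) had between 3 and 50 counts in every library, although their products act in ribosome assembly. The other 3, RRP1, RRP8 and RRP36, had between 147 and 1098 counts. RRP9 had 9 and 8 counts in RB-BC and 10 and 18 in DMSO, and RRP15 had 9 and 7 in RB-BC and 9 and 9 in DMSO. RRP1 had 1052 and 971 counts in RB-BC and 1098 and 905 in DMSO. How reads of these genes were assigned is not known, and the reason for the low counts was not tested.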
